A study of Mus musculus with 16 samples.

Results

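To describe which differences between astrocytes and neurons were present in cells without Eed, RNA-seq libraries of green Eed-/- cells sorted from the mouse neocortex at postnatal day 4 (P4) were compared. The libraries were chosen by their labels, as Eed-/- cells of mosaic animals with 1 cell type named, and numbered 8 of the 16 in the series, 5 labelled astrocyte and 3 labelled neuron. The mosaics were made by mosaic analysis with double markers (MADM), in which the homologs of a chromosome, here chromosome 7, recombine and leave sparse labeled cells whose color reports their genotype. The Eed-MADM animals carried MADM7-GT/TG, Eed, Emx1-cre and XGFAP-lacZ, and in them green cells lacked Eed on both homologs within a largely heterozygous tissue. The control-MADM animals carried the same alleles apart from Eed, and their green Eed+/+ cells (5 libraries labelled astrocyte and 2 labelled neuron) served as the reference. In both genotypes the strain label was CD1, the age was P4, and green cells held 2 paternal copies of chromosome 7, so none of these features separated the groups. Emx1-cre acts in the progenitors of cortical projection neurons, astrocytes and oligodendrocytes, whereas interneurons, microglia, endothelial and blood cells arise from other lineages. XGFAP-lacZ places lacZ under the human GFAP promoter, and GFP+/lacZ+ cells were collected as astrocytes while GFP+/lacZ- cells were collected as neurons, so that the second gate was set by the absence of a reporter. Each library came from an individual animal, and animals of both sexes were used.

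Polycomb repressive complex 2 (PRC2) methylates histone H3 at lysine 27 and thereby keeps developmental genes silent, and EED is the core subunit that binds this mark and is required for the activity of the catalytic subunits EZH1 and EZH2. Hox genes, which specify position along the body axis and are silent in the forebrain, are among the best known targets of the complex. Astrocytes take up glutamate and potassium, supply lipids and metabolites and shape the extracellular matrix, whereas cortical projection neurons at this age extend axons and assemble synapses. During the first postnatal week cortical astrocytes still divide, whereas projection neurons no longer do.

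Library quality was unequal between the cell types. The 3 lacZ- libraries held 1256686, 2058192 and 1618825 reads in genes, with 70.3% to 74.8% of reads aligned uniquely. Of the 5 lacZ+ libraries, replicates 2 and 5 held 1890462 and 994077 reads in genes at 63.5% and 66.3% unique alignment, whereas replicates 1, 3 and 4 held 383061, 403472 and 211736 at 28.8%, 26.6% and 26.1%. Mitochondrial genes took 30.0% and 33.9% of the gene reads in lacZ+ replicates 3 and 4 and between 5.17% and 9.62% in the other Eed-/- libraries. Spearman correlations between the 5 lacZ+ libraries had a median of 0.29 (range 0.162 to 0.686), and those between the 3 lacZ- libraries had a median of 0.843 (range 0.814 to 0.931). A limit of 60% unique alignment and 1000000 uniquely aligned reads left 5 of the 8 Eed-/- libraries (lacZ+ replicates 2 and 5, lacZ- replicates 1 to 3) and 5 of the 7 Eed+/+ libraries (lacZ+ replicates 1, 2, 4 and 5, lacZ- replicate 1), called well aligned here. The counts and medians of the main gene groups are therefore given over the 5 well aligned libraries and beside them over all 8. All 3 poorly aligned Eed-/- libraries were lacZ+, so that alignment was unequal between the gates in the full set.

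The labelled cell types were checked against Aqp4, the water channel of astrocyte endfeet, and Gfap, the astrocyte intermediate filament. Levels are given as CPM, the reads of a gene per 1000000 gene reads after TMM scaling. Aqp4 stood at 2262 and 1339.7 CPM in lacZ+ replicates 2 and 5, at 55.4, 889 and 0 CPM in the poorly aligned replicates 1, 3 and 4, and at 714, 726 and 473 CPM in the 3 lacZ- libraries. Gfap stood at 808 and 1026 CPM in lacZ+ replicates 2 and 5, at 36.4, 92.8 and 0 CPM in replicates 1, 3 and 4, and at 307, 387 and 307 CPM in the lacZ- libraries. Both markers were thus highest in the well aligned lacZ+ libraries but were plainly read in all 3 libraries labelled neuron. Apoe, the main lipid carrier made by astrocytes, reached 6725, 8567 and 2375 CPM in the lacZ- libraries. The same held with Eed present, where the well aligned lacZ- library had 519.7 CPM of Aqp4. On these markers the lacZ- libraries were not free of astrocyte RNA, and the populations are called lacZ+ and lacZ- here instead of astrocytes and neurons. Gfap is not independent of the sort, since the gate used a GFAP promoter. In bulk libraries, fewer cells of a type and less RNA per cell cannot be told apart.

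Promoters of 6 genes of the lists are shown as examples. Of these, 3 were genes of astrocyte function that were higher in the well aligned lacZ+ libraries. The other 3 were Hox genes that were read in Eed-/- cells only or almost only. The sequences run from 250 bases before to 50 bases after the gene start and come from RefSeq (GRCm38.p6), where 296 of the 395 listed genes had an entry. In the astrocyte genes capitals mark a STAT motif, TTCNNNGAA, searched on both strands together with the NFI motif TTGGCA. In the Hox genes capitals mark each CG dinucleotide.
Gfap, intermediate filament, minus strand, chr11:102897151-102897450: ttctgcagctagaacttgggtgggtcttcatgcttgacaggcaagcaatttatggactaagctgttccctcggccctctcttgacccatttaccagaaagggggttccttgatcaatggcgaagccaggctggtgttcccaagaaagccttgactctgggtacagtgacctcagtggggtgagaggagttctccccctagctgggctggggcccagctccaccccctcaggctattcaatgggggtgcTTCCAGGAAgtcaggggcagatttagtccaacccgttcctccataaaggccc
Glul, glutamine synthetase, plus strand, chr1:153899679-153899978: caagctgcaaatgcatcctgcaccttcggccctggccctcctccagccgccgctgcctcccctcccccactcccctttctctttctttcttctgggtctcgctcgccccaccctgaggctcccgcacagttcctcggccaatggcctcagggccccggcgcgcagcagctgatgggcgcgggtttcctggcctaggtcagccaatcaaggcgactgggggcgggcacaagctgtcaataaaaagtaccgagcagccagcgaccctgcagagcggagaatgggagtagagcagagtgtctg
Slc1a2, glutamate transporter, plus strand, chr2:102706188-102706487: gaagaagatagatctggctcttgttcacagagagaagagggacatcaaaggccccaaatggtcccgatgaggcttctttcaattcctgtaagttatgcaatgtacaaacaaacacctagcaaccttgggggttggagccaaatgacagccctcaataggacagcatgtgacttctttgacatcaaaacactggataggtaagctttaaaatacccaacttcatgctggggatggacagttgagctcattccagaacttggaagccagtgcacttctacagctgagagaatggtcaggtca
Hoxa7, read in all 3 lacZ- libraries and in no lacZ+ library, minus strand, chr6:52218524-52218823: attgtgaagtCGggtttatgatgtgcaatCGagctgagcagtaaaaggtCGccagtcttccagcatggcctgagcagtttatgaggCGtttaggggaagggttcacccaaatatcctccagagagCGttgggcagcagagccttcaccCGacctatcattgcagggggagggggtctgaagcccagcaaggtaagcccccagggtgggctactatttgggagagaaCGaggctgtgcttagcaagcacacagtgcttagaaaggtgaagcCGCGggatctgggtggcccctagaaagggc
Hoxd9, read in all 3 lacZ- libraries and no lacZ+ library, plus strand, chr2:74697513-74697812: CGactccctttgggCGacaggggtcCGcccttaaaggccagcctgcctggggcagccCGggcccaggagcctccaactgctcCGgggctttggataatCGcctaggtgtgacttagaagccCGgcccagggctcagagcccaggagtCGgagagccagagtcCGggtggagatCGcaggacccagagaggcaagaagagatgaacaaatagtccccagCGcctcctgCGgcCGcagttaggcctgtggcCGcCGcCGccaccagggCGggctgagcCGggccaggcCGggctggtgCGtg
Hoxb8, read in all 5 well aligned libraries, plus strand, chr11:96281655-96281954: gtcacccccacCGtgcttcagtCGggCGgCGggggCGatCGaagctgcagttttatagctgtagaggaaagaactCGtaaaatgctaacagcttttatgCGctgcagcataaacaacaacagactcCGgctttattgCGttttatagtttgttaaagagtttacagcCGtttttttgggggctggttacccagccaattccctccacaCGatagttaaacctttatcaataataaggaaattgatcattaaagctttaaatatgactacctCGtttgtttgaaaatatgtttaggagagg
TTCNNNGAA occurred in 1 of the 3 astrocyte promoters, that of Gfap, and in 8.30% of 32851 promoters of the same length, and TTGGCA occurred in none of the 3 and in 14.1% of all promoters. CG dinucleotides numbered 9 in the Hoxa7 window, 20 in that of Hoxd9 and 13 in that of Hoxb8, against a median of 7 over all promoters and 3, 17 and 1 in those of Gfap, Glul and Slc1a2.

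Over all 8 libraries, 8 of 13367 genes differed between lacZ+ and lacZ- cells at an adjusted p of 0.05 (edgeR's quasi-likelihood test, Benjamini-Hochberg adjustment), all of them higher in lacZ+ (0.0598% of the genes tested). None was an astrocyte or neuron gene of the lists used here. They were the globin genes Hbb-bs, Hba-a1 and Hbb-bt of red blood cells, Mgp, which encodes a matrix protein of vessels and cartilage, the DNA methylation cofactor gene Uhrf1, the hormone-sensitive lipase gene Lipe, and the gene models Gm15262 and Gm47542. In all, 936 genes, these 8 included, had an unadjusted p under 0.05, 209 higher and 727 lower, and the log2 fold change of all genes had a median of -0.72, so that lower values in lacZ+ were the rule.

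The globins were carried by poorly aligned libraries. Hbb-bs stood at 2438 CPM in lacZ+ replicate 1, at 29.9 CPM in replicate 3 and at 3809.6 CPM in replicate 4. It was at 0 in lacZ+ replicates 2 and 5 and at 0, 0 and 0.635 CPM in the lacZ- libraries. The groups overlapped, and without the poorly aligned libraries the fitted log2 fold change turned from 11.99 to -1.95. Mgp was read at 1242 CPM in replicate 3 and at 12 CPM in replicate 2, and was at 0 in the other 3 lacZ+ libraries and at 0, 0 and 0.635 CPM in the lacZ- libraries. The 5 erythroid genes summed to 5857 CPM in lacZ+ replicate 1, 62.8 in replicate 3 and 8117 in replicate 4, against 0 in replicates 2 and 5 and at most 5.68 in lacZ-. The 10 microglia genes summed to 9076 CPM in replicate 1 and 3424 in replicate 3, with 0 in replicates 2, 4 and 5 and 127, 86.3 and 13.3 CPM in lacZ-. Erythroid genes were thus high in the poorly aligned replicates 1 and 4 and microglia genes in replicates 1 and 3, and both lists were at 0 in the well aligned lacZ+ libraries. Their part in the other differences over 8 libraries was not tested.

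Uhrf1, Lipe, Gm15262 and Gm47542 were the called genes whose 5 lacZ+ libraries all lay above the 3 lacZ- libraries. Such separation upward was found for 0.314% of the genes tested, and separation downward for 11.4%. Uhrf1 (ENSMUSG00000001228.14, chr17:56303321-56323486, GRCm38) stood at 1037 and 357 CPM in lacZ+ replicates 2 and 5, at 8598, 10406 and 14833 CPM in replicates 1, 3 and 4, and at 103, 221 and 212 CPM in lacZ- (log2 fold change 5.30 ± 1.16 SE, adjusted p = 0.0101). Lipe stood at 1017 and 309 CPM, at 4739.8, 8934 and 8362 CPM, and at 63.8, 119 and 123 CPM in the same order (5.51 ± 1.20, adjusted p = 0.0101). Gm47542 stood at 2166 and 597 CPM, at 14181, 21530.5 and 25436 CPM, and at 91.4, 197 and 187 CPM (6.33 ± 1.15, adjusted p = 0.000222). In each of them the poorly aligned libraries were the highest, also with Eed present. The 5 poorly aligned among the 15 labelled libraries, whatever their genotype and gate, lay above all 10 well aligned ones: for Uhrf1 they spanned 4397 to 14833 CPM against 103 to 1663, for Lipe 3834 to 11282 against 63.8 to 1017, for Gm47542 8695 to 25436 against 91.4 to 2166 and for Gm15262 1286 to 3996 against 8.45 to 453. Among the well aligned Eed-/- libraries, Uhrf1 was higher in lacZ+ by 1.97 ± 0.71 and Lipe by 2.71 ± 0.77 on the log2 scale, with adjusted p of 0.674 and 0.672. Whether alignment accounts for the remaining difference was not tested.

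**Figure D1:**
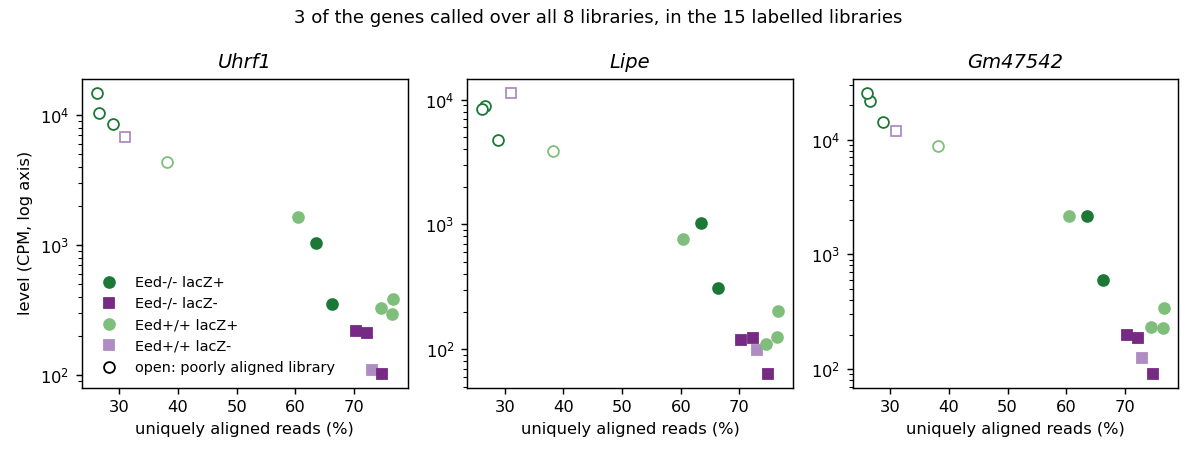
Level (CPM, log axis) of Uhrf1, Lipe and Gm47542 in the 15 labelled libraries against the share of uniquely aligned reads (%); circles are lacZ+ and squares lacZ-, dark is Eed-/- and light Eed+/+, and open symbols are poorly aligned libraries. The 5 open symbols lie above all 10 filled ones in each panel, between 4397 and 14833 CPM for Uhrf1.

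Among the 5 well aligned libraries no gene of 14445 passed an adjusted p of 0.05 (edgeR, smallest adjusted p 0.661), and 1047 had an unadjusted p under 0.05. These were 394 genes higher in lacZ+ (2.73% of the genes tested) and 653 lower (4.52%), and all genes together had a median log2 fold change of -0.17. On the same libraries DESeq2 called 75 genes, 17 higher and 58 lower, and limma-voom with quality weights called 4, all higher. Both well aligned lacZ+ libraries lay above all 3 lacZ- libraries for 8.49% of genes and below them for 18.2%. Shares of list members are read against these backgrounds below. Of the 653 lower genes, 301 had no read in either lacZ+ library, and of the 394 higher genes 45 had none in any lacZ- library.

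The genes described here as leading the well aligned comparison upward were outside the astrocyte lists. They were chosen after their values were seen, by the rule stated for all 8 libraries. Crym, which encodes the thyroid hormone binding protein mu-crystallin, stood at 358 and 492 CPM in lacZ+ replicates 2 and 5 and at 37.8, 40.8 and 27.3 CPM in lacZ- (3.57 ± 0.65, unadjusted p = 7.08e-05). The 5 Eed+/+ well aligned libraries held only 0 to 11.6 CPM of Crym, below every one of these. Piezo2, a mechanically gated channel, stood at 339.8 and 213 CPM against 23.6, 35.6 and 19.1 CPM (3.39 ± 0.65), and reached 1491, 2385 and 3324 CPM in the poorly aligned lacZ+ libraries, so that all 5 lay above lacZ-. limma-voom called both genes. Scd1, a fatty acid desaturase, and Smox, a polyamine oxidase, followed with 2.28 ± 0.53 and 1.74 ± 0.39, and Leng8 gave 2.30 ± 0.49.

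Downward, the leading genes were Nkd1, Gpatch4, Cdk6, Cbx1, Klf5 and Pex26. Cdk6, the cyclin dependent kinase of the G1 phase, stood at 82.8 and 86.6 CPM in lacZ+ replicates 2 and 5 and at 318, 306 and 431 CPM in lacZ- (-2.05 ± 0.45, unadjusted p = 0.000434). It was at 1.73, 0 and 0 CPM in the poorly aligned lacZ+ libraries, so that the groups did not overlap over all 8 libraries either. Such separation downward was found for 11.4% of all genes. Nkd1, an inhibitor of Wnt signaling, stood at 6.68 and 3.06 CPM against 87.5, 83.7 and 42.6 CPM (-3.82 ± 0.74). In Eed+/+ cells Nkd1 lay the other way, with a log2 fold change of 1.50 ± 0.82, and the difference between the genotypes was -5.32 (unadjusted p = 0.000432), which DESeq2 called. Here and below, Eed+/+ values over the well aligned libraries rested on 1 lacZ- library. Its spread is assumed to be that of the other groups. Cbx1, a heterochromatin protein, stood at 23.4 and 80.5 CPM against 231, 235 and 238 CPM (-2.20 ± 0.49). The transcription factor gene Klf5 had no read in any of the 5 lacZ+ libraries and stood at 41, 50.1 and 61 CPM in lacZ-. Against a floor of 3 reads over both well aligned lacZ+ libraries it was at least 42.4-fold lower in lacZ+, and on the same floor Gpatch4 was at least 31.0-fold and Pex26, a peroxisome assembly gene, at least 23.2-fold lower.

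Most genes of astrocyte function were higher in lacZ+ than in lacZ- Eed-/- cells over the well aligned libraries. Of the 16 genes for glutamate, potassium and water transport, 15 were higher in lacZ+ and 12 had an unadjusted p under 0.05, with a median log2 fold change of 1.51. Of the 16 genes of lipid and intermediary metabolism, 15 were higher and 10 had an unadjusted p under 0.05, with a median of 1.26. Of the 18 surface and matrix genes, 17 were higher and 12 had an unadjusted p under 0.05, with a median of 1.34. None of these genes passed adjustment in edgeR, while Glul and Ttyh1 were among those DESeq2 called.

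Among the transport genes, Slc1a2, the main glutamate transporter of the forebrain, stood at 4188 and 1998 CPM in lacZ+ replicates 2 and 5 against 899, 584 and 1429 CPM in lacZ- (1.69 ± 0.48). In the poorly aligned lacZ+ libraries it stood at 346, 3549.5 and 1617 CPM, which spans the lacZ- range. Glul, which turns glutamate into glutamine, stood at 1026 and 372 CPM against 225, 198 and 235 CPM (1.68 ± 0.42), with 119, 209 and 0 CPM in the poorly aligned libraries. Both genes separated the groups in the well aligned libraries only. The GABA transporter gene Slc6a11 (1.80 ± 0.53), the bicarbonate transporter gene Slc4a4 (1.57 ± 0.46) and Aqp4 (1.49 ± 0.45) gave like values. The gap junction gene Gja1 stood at 1853 and 903 CPM against 857, 506 and 384 CPM (1.24 ± 0.58). Slc7a11, the cystine transporter gene, was the member on the other side of 0, at 47.4 and 1.02 CPM against 30.7, 14.5 and 36.2 CPM (-0.11 ± 0.99).

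Among the metabolic genes, Ttyh1, which encodes a chloride channel of glia, stood at 2943 and 1009.6 CPM against 627, 658 and 634 CPM (1.64 ± 0.43). Apoe stood at 28444 and 11066 CPM against 6725, 8567 and 2375 CPM (1.74 ± 0.54). Aldh1l1, the folate enzyme widely used as an astrocyte marker, stood at 1013 and 275 CPM against 227, 239.7 and 161 CPM (1.63 ± 0.50), and its level in replicate 5 lay just above the highest lacZ- library. Of the surface and matrix genes, Tnc, an extracellular matrix glycoprotein of immature astrocytes, stood at 937 and 949.5 CPM against 243, 231 and 579 CPM (1.43 ± 0.42). Sparc, a secreted matrix protein, stood at 1253 and 897 CPM against 409, 469 and 468 CPM (1.26 ± 0.37). With 3200.3, 1909 and 530.5 CPM in the poorly aligned libraries, Sparc was the astrocyte gene whose 5 lacZ+ libraries all exceeded the 3 lacZ- libraries, and no other of the 65 did so. Gfap gave 1.45 ± 0.53 and Bcan, a proteoglycan of the perineuronal matrix, 1.50 ± 0.46. Ntsr2, a neurotensin receptor gene of astrocytes, lay on the other side, at 158 and 86.6 CPM against 262, 273 and 133 CPM (-0.87 ± 0.53).

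**Figure D2:**
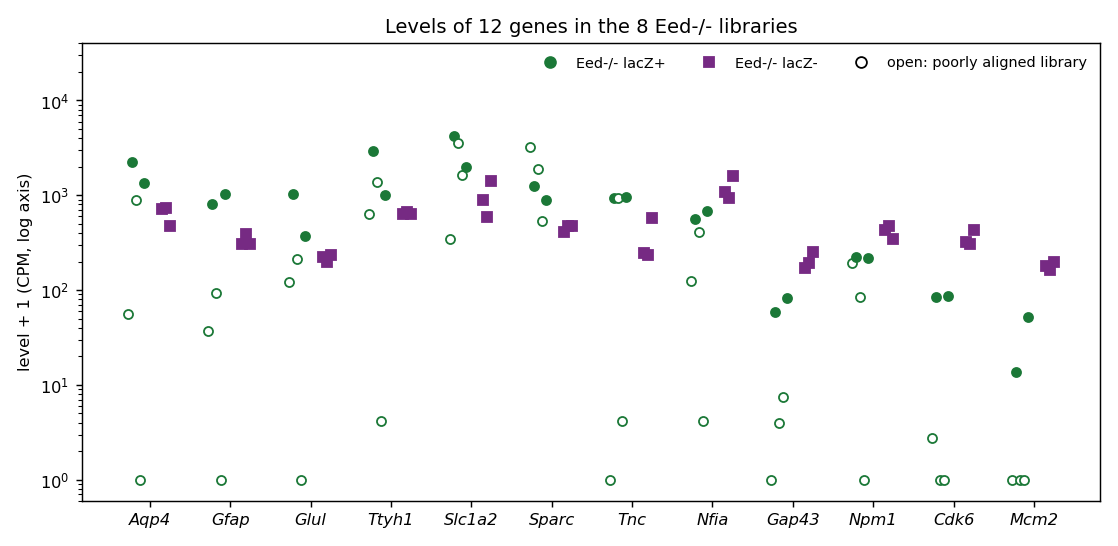
Level + 1 (CPM, log axis) of 12 genes in the 8 Eed-/- libraries; green circles are lacZ+, purple squares lacZ-, and open circles poorly aligned libraries. The filled circles of Slc1a2 (4188 and 1998 CPM) lie above all squares, whereas those of Cdk6 (82.8 and 86.6 CPM) lie below them, and open circles scatter over the whole range.

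Most of this astrocyte difference came from lacZ+ replicate 2. The transport genes summed to 29937 CPM in replicate 2 and 10919 CPM in replicate 5, against 8111, 6594 and 7370 CPM in lacZ-, so that replicate 2 held 4.07 times the lacZ- mean and replicate 5 held 1.48 times. For the metabolic genes these ratios were 3.86 and 1.20, and for the surface and matrix genes 3.07 and 1.42. Without replicate 2, 11 of the 16 transport genes lay above 0 with a median log2 fold change of 0.63, and at an unadjusted p under 0.05 2 were higher and 1 lower. Of the metabolic genes 8 of 16 then lay above 0, with a median of 0.04 and none at that p. Of the surface and matrix genes 14 of 18 lay above 0, with a median of 0.35 and 3 at that p. Without replicate 5 the medians were 2.03, 1.87 and 1.69, and 263 genes were called, 67 higher and 196 lower. That fit left a lone lacZ+ library whose spread is assumed to be that of the other groups. Beside the lacZ- mean, the summed level of replicate 2 was 0.197 times for cytoskeletal genes of neurons, 0.299 times for neuronal transcription factors, 0.844 times for genes of neuronal adhesion and RNA binding and 0.913 times for synaptic genes. Tubb3, the neuronal beta-tubulin of the first list, stood at 48.7 CPM there, at 1267 CPM in replicate 5 and at 745, 1344 and 744 CPM in lacZ-.

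Transcription factors of the astrocyte lineage did not share the direction of the function genes. Of 15 such genes 7 were higher in lacZ+, with a median log2 fold change of -0.39 beside -0.17 over all genes, and none was higher at an unadjusted p under 0.05. The median was -0.02 with 6 higher without lacZ- replicate 3, -0.46 with 2 higher without lacZ+ replicate 2 and -0.37 with 3 higher without lacZ- replicate 2. Over all 8 libraries 2 of the 15 were higher, with a median of -0.96 beside -0.72 over all genes. Sox9, which directs astrocyte specification, stood at 957 and 701 CPM in lacZ+ replicates 2 and 5 and at 909, 656 and 534 CPM in lacZ- (0.24 ± 0.38). Nfia, which drives the onset of gliogenesis, stood at 565 and 689 CPM against 1075, 944 and 1606 CPM (-0.95 ± 0.38, unadjusted p = 0.0264). Gli3, the repressor of hedgehog targets, stood at 8.01 and 16.3 CPM against 40.2, 38.2 and 99.1 CPM (-2.29 ± 0.67, unadjusted p = 0.00394). Both lay wholly below the lacZ- libraries. Eed+/+ cells gave 0.23 ± 0.46 for Nfia and 0.54 ± 0.75 for Gli3, and the difference between the genotypes had an unadjusted p of 0.0722 for Nfia and 0.0164 for Gli3. Id3 and Hes5, targets of BMP and Notch signaling, had an unadjusted p under 0.05 in Eed+/+ cells (1.84 ± 0.72 and 1.63 ± 0.76) and values of 0.43 ± 0.51 and 0.17 ± 0.55 in Eed-/- cells. The differences between the genotypes had unadjusted p of 0.121 and 0.130.

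Over all 8 libraries no member of the astrocyte lists was called, 41 of 65 were higher in lacZ+, and the median log2 fold change was 0.40, against -0.72 over all genes. Aqp4 gave 0.51 ± 1.03 and Gfap 0.24 ± 1.17 in that comparison.

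**Figure D3:**
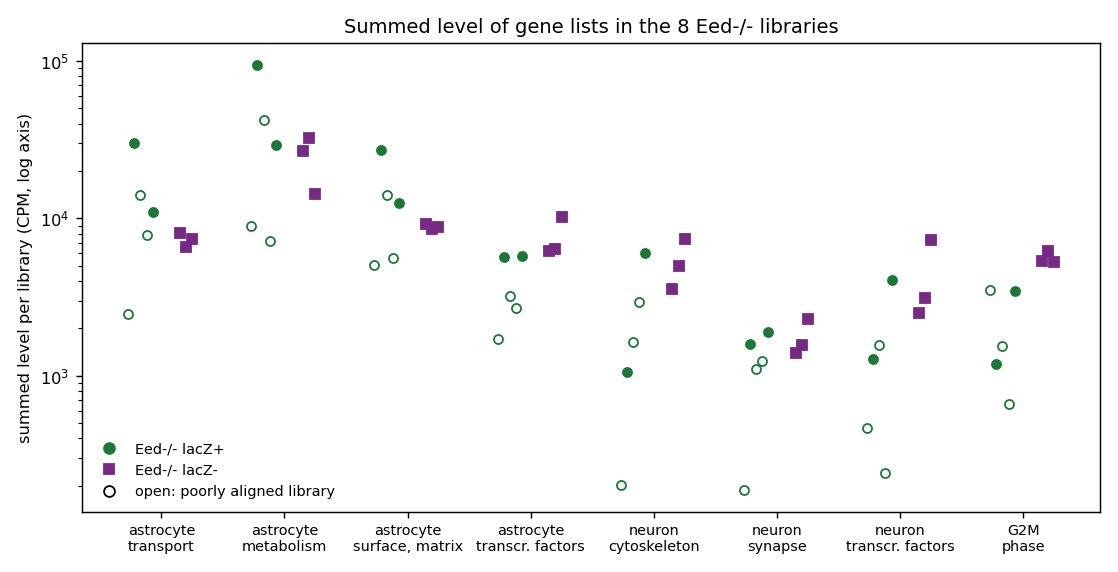
Summed level per library (CPM, log axis) of 8 gene lists in the 8 Eed-/- libraries; green circles are lacZ+, purple squares lacZ-, and open circles poorly aligned libraries. For the transport genes lacZ+ replicate 2 (29937 CPM) stands well above replicate 5 (10919 CPM), and for the G2M genes both lie below the 3 squares.

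Cytoskeletal and transcription factor genes of neurons lay mostly below 0. All 15 genes of the neuronal cytoskeleton were lower in lacZ+ over the well aligned libraries, with a median log2 fold change of -0.70, but 1 had an unadjusted p under 0.05. That gene was Gap43, the growth cone protein gene, at 57.4 and 82.5 CPM in lacZ+ replicates 2 and 5 against 169, 191 and 252 CPM in lacZ- (-1.55 ± 0.58, unadjusted p = 0.0175). The median of this list turned to 0.18 without lacZ+ replicate 2, and the summed level of replicate 5 was 1.12 times the lacZ- mean. Without lacZ- replicate 3 the median was -0.32 with 4 genes higher, and without lacZ+ replicate 5 it was -2.03. Of 22 neuronal transcription factor genes 19 were lower, with a median of -0.47 and none at that p. This too rested on single libraries, since 10 of the 22 were higher without lacZ- replicate 3 (median -0.018) and 8 without lacZ+ replicate 2 (median -0.32), while the median was -1.48 without lacZ+ replicate 5. Sox11, a transcription factor of young neurons, stood at 28 and 1076 CPM against 666, 548 and 2575 CPM and spanned the lacZ- libraries.

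Synaptic genes showed no common direction, with 10 of 18 higher and a median log2 fold change of 0.10, which ranged from -0.65 without lacZ+ replicate 5 to 0.22 without lacZ- replicate 3. Grin2b, a subunit of the NMDA receptor, stood at 10 and 40.8 CPM against 66.2, 86.3 and 173 CPM (-2.12 ± 0.94), but reached 665 CPM in the poorly aligned replicate 4. Of 17 genes for neuronal adhesion and RNA binding 7 were higher, with a median of -0.92, or -0.33 without lacZ+ replicate 2, -0.36 without lacZ- replicate 3. Without lacZ+ replicate 5 the median was -3.65, and 4 were above 0. Npm1, a nucleolar protein, stood at 222 and 218 CPM against 426, 472 and 344 CPM (-0.92 ± 0.37) and at 194, 83.8 and 0 CPM in the poorly aligned libraries, so that all 5 lacZ+ libraries lay below lacZ-. Lrrn3, which encodes a leucine-rich repeat membrane protein, stood at 4.67 and 35.7 CPM against 62.2, 50.6 and 68.6 CPM (-1.62 ± 0.90), with 0, 0 and 3.21 CPM in the poorly aligned libraries, and separated in the same way. Over all 8 libraries such separation was found for 2 of the 17 genes, beside 11.4% of all genes. Eed+/+ cells gave -0.80 ± 0.42 for Npm1 and -1.61 ± 0.93 for Lrrn3. The Eed-/- value of Lrrn3 was -3.65 without lacZ+ replicate 5 and -0.77 without replicate 2. Nrcam, a cell adhesion gene also used by glia, went against its list, at 429 and 255 CPM against 129, 41.8 and 131 CPM (1.78 ± 0.59). Over all 8 libraries 64 of 72 neuronal genes were lower with a median of -1.13, beside -0.72 over all genes, and none was called.

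Notch signaling lets a ligand on 1 cell activate a receptor on its neighbor, and BMP and JAK-STAT signaling carry gliogenic cues. Of 21 Notch pathway genes 12 were higher in lacZ+ over the well aligned libraries, with a median log2 fold change of 0.19 that turned to -0.91 without lacZ+ replicate 2, -0.70 without lacZ+ replicate 5 and -0.062 without lacZ- replicate 2. With all 8 libraries 7 of 20 were higher, with a median of -0.50 beside -0.72 over all genes. All 5 ligand genes of the list, Dll1, Dll3, Dll4, Jag1 and Jag2, had fitted values below 0 in the well aligned libraries, and Dll4 alone of them had an unadjusted p under 0.05. Dll1 stood at 0 and 11.2 CPM in lacZ+ replicates 2 and 5 and at 127, 56.8 and 79.4 CPM in lacZ- (-4.06 ± 1.92, unadjusted p = 0.0576). Dll4 had no read in any of the 5 lacZ+ libraries and stood at 7.88, 22.7 and 7.62 CPM in lacZ-, at least 11.4-fold more than the floor over the well aligned pair. Both genes separated the groups over all 8 libraries too. Such separation downward was found for 6 of the 20 Notch genes tested there and for 11.4% of all genes. The poorly aligned lacZ+ libraries detected between 2959 and 7321 genes. The feedback inhibitor gene Nrarp was higher in lacZ+ (1.76 ± 0.69, with 2.49 ± 1.02 in Eed+/+ cells). Notch2, a receptor gene, stood at 134 and 118 CPM against 294, 150.3 and 222 CPM (-0.81 ± 0.38), whereas Eed+/+ cells gave 1.09 ± 0.49, and the difference between the genotypes had an unadjusted p of 0.00874. Of 26 BMP and JAK-STAT genes 15 were higher, with a median of 0.38, or 0.22 without lacZ+ replicate 2, -0.13 without lacZ+ replicate 5, 0.059 without lacZ- replicate 2 and 0.60 without lacZ- replicate 3. With all 8 libraries 9 of 25 were higher, with a median of -0.48 beside -0.72 over all genes. Lifr, the receptor gene for leukemia inhibitory factor, stood at 97.5 and 65.2 CPM against 27.6, 19.6 and 16.5 CPM (1.94 ± 0.58), and Chrdl1, a secreted BMP antagonist gene of astrocytes, gave 2.28 ± 0.74. Id1, a BMP target gene, gave -0.42 ± 0.46 in Eed-/- and 1.70 ± 0.62 in Eed+/+ cells (unadjusted p = 0.0144 for the difference).

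Cell cycle genes were lower in lacZ+ than in lacZ- Eed-/- cells. Of 43 S phase genes 41 were lower over the well aligned libraries, with a median log2 fold change of -1.90, and 13 of them had an unadjusted p under 0.05. Of 54 G2M genes 51 were lower, with a median of -1.72 and 7 at that p. Over all genes the median was -0.17, and 4.52% were lower at that p. Both lacZ+ libraries lay below all 3 lacZ- libraries for 29 of the 43 and 36 of the 54, beside 18.2% of all genes. The medians were -0.80 and -0.03 in Eed+/+ cells, where 39 of 43 and 28 of 54 genes were lower and no gene of either list but Uhrf1 had an unadjusted p under 0.05. The difference between the genotypes reached that p for 3 and 2 of the genes, beside 342 of the 14445 genes tested. Over all 8 libraries 38 of 43 and 50 of 54 were lower, with medians of -1.70 and -1.98 beside -0.72 over all genes. Uhrf1 was the gene called among them.

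Mcm2, a subunit of the replicative helicase, stood at 12.7 and 50.9 CPM in lacZ+ replicates 2 and 5 against 179, 162 and 199 CPM in lacZ- (-2.53 ± 0.79, unadjusted p = 0.00607). Pcna, the replication clamp gene, stood at 34 and 55 CPM against 85.9, 133 and 112 CPM (-1.32 ± 0.57). Gmnn, which encodes the licensing inhibitor geminin, stood at 4.67 and 1.02 CPM against 41, 53.2 and 24.8 CPM (-3.71 ± 1.08), and Eed+/+ cells gave 0.27 ± 1.11 (unadjusted p = 0.0286 for the difference). Each of these lay wholly below lacZ- in the well aligned pair. Of the mitotic genes, Nuf2, a kinetochore gene, had no read in any of the 5 lacZ+ libraries and stood at 39.4, 52.2 and 29.2 CPM in lacZ-, at least 34.1-fold more. Pimreg, a gene of the metaphase to anaphase transition, had no read in replicates 2 and 5 and stood at 60.7, 83.7 and 37.5 CPM in lacZ-, but was read at 139 CPM in the poorly aligned replicate 1. Mki67, the gene of the proliferation antigen Ki-67, stood at 0 and 57.1 CPM against 78, 81.1 and 195 CPM (-2.09 ± 1.81), and at 303, 12 and 0 CPM in the poorly aligned libraries. The 2 S phase genes on the other side were Cdc45 (0.05 ± 1.15) and Uhrf1, which also carried the S phase sum of the poorly aligned libraries.

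The cell cycle values also differed between the well aligned lacZ+ libraries. The G2M genes summed to 1182 CPM in lacZ+ replicate 2 and 3458 CPM in replicate 5 against 5320, 6207 and 5253.5 CPM in lacZ-. Without replicate 2 the medians were -1.20 for S phase and -0.92 for G2M genes, with 6 and 1 genes lower at an unadjusted p under 0.05. Replicate 2 had reads for 22 of the 43 S phase and 23 of the 54 G2M genes and replicate 5 for 39 and 51, so that no median is given for replicate 2 alone. Over all genes, replicates 2 and 5 detected 12357 and 14199, against between 16894 and 18064 in lacZ-. The part of this in the cell cycle values was not tested. Genes of intermediate progenitors were read in both gates. The 8 genes of that list summed to 637 and 972 CPM in lacZ+ replicates 2 and 5 and to 1114, 1161 and 901 CPM in lacZ-, so that replicate 5 lay within the lacZ- range, and 2 of them were higher in lacZ+. The 2 that lay wholly below lacZ- in the well aligned pair were Neurog2 and Hes6. Neurog2, a transcription factor of such progenitors, stood at 59.9, 33.6 and 34.9 CPM in lacZ- and had no read in lacZ+ replicates 2 and 5, though it reached 788 CPM in the poorly aligned replicate 1. Hes6 stood at 80.1 and 82.5 CPM against 249.8, 399.8 and 201 CPM (-1.81 ± 0.51). The sort did not separate dividing from resting cells, and the part of progenitors in the lacZ- gate in these values was not tested.

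**Figure D4:**
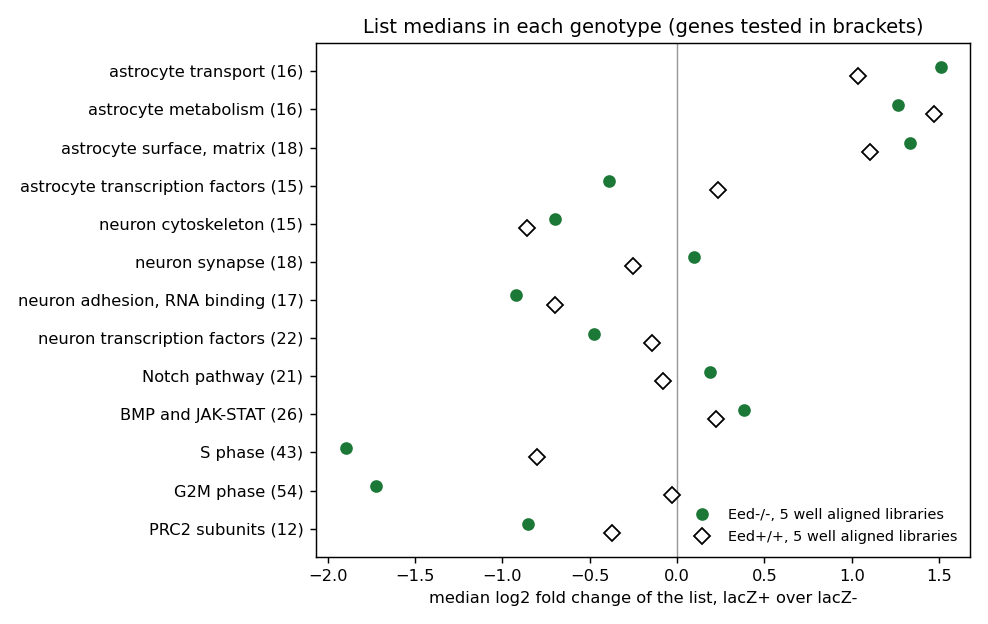
Median log2 fold change of lacZ+ over lacZ- for 13 gene lists, with the number of genes tested in brackets; green circles are the 5 well aligned Eed-/- libraries and open diamonds the 5 well aligned Eed+/+ libraries. The circles and diamonds of the 3 astrocyte function lists lie between 1.03 and 1.51, and the G2M list lies at -1.72 in Eed-/- and -0.03 in Eed+/+ cells.

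Genes of PRC2 itself had no member with an unadjusted p under 0.05 between the gates. Eed (ENSMUSG00000030619.9, chr7:89954654-89980983) stood at 17.4 and 14.3 CPM in lacZ+ replicates 2 and 5, at 0 in replicates 1, 3 and 4 and at 16.5, 38.2 and 33.7 CPM in lacZ- (-0.90 ± 0.74). The 5 well aligned Eed+/+ libraries held between 28.5 and 76.5 CPM, and 2 of the 5 well aligned Eed-/- libraries lay within that range. A count over the whole gene does not separate reads of the deleted part from the rest, so these values check the deletion only loosely. Ezh2, the catalytic subunit gene of dividing cells, stood at 42.1 and 173 CPM against 170.2, 149 and 262 CPM (-0.87 ± 0.57). Ezh1, the catalytic subunit gene of resting cells, gave -0.97 ± 1.76, and Suz12, a core subunit gene, -1.25 ± 0.91. Of 12 PRC2 genes tested 9 were lower with a median log2 fold change of -0.85, or -0.14 without lacZ- replicate 3 and -0.57 without lacZ+ replicate 2. With 1 library left out Suz12 ranged from -2.01 to -0.022 and Ezh2 from -2.17 to -0.17. In the 8 libraries together 8 of 12 were lower, with a median of -1.64 beside -0.72 over all genes. In the well aligned libraries 1 of the 12 lay above lacZ- and 1 below without overlap, which is no larger a share than the 8.49% and 18.2% of all genes. Phf1, an accessory subunit gene, stood at 66.1 and 47.9 CPM in lacZ+ against 14.2, 15.5 and 12.1 CPM in lacZ- (2.03 ± 1.21), and Rbbp7, a histone binding subunit gene, at 84.1 and 97.8 CPM against 180, 204 and 117 CPM (-0.89 ± 0.48).

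Hox transcripts were present in Eed-/- cells of both gates and nearly absent with Eed. Over the 7 Eed+/+ libraries 33 of 39 Hox genes had no read, and the other 6 had 14 reads in all. In the lacZ- Eed-/- libraries 27, 28 and 31 of the 39 were read, against 11 and 20 in lacZ+ replicates 2 and 5 and 0, 2 and 2 in the poorly aligned replicates 1, 3 and 4. All 3 lacZ- libraries shared 20 of them and both well aligned lacZ+ libraries shared 10. The summed Hox level stood at 144 and 284 CPM in lacZ+ replicates 2 and 5, at 0, 198 and 16.1 CPM in the poorly aligned replicates 1, 3 and 4, at 304, 257 and 281 CPM in lacZ- and at most 12.7 CPM in any Eed+/+ library. Replicate 5 thus reached the lacZ- level, and the summed level did not separate the gates. The libraries also differed in the number of genes detected, from 12357 and 14199 in lacZ+ replicates 2 and 5 to between 16894 and 18064 in lacZ-, and the part of this in the Hox counts was not tested.

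Single Hox genes differed in how they were spread over the gates. Hoxb8 was read in all 5 well aligned libraries, at 49.4 and 27.5 CPM in lacZ+ and 18.1, 15 and 14 CPM in lacZ- (1.29 ± 1.23). Hoxc9 stood at 4.67 and 56 CPM against 41.8, 52.7 and 53.4 CPM, and Hoxb13 at 0 and 24.5 CPM against 54.4, 69.2 and 27.9 CPM. Hoxa7 stood at 20.5, 22.7 and 21 CPM in lacZ- and had no read in any lacZ+ library. With the floor of 3 reads over both well aligned lacZ+ libraries it was at least 17.8-fold lower in lacZ+, and Hoxa10 and Hoxd9, read in all 3 lacZ- libraries and in no other labelled library, were at least 11.6-fold and 8.30-fold lower. Of 19 Hox genes tested, these 3 had an unadjusted p under 0.05 (edgeR, 0.00999, 0.0195 and 0.0372), and none passed adjustment (adjusted p = 0.674). Over all genes 4.52% were lower at that p, and of these 653 genes 301 had no read in either well aligned lacZ+ library. Both of these libraries lay below all 3 lacZ- libraries for 4 of the 19 and above them for 3. The shares over all genes were 18.2% and 8.49%.

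**Figure D5:**
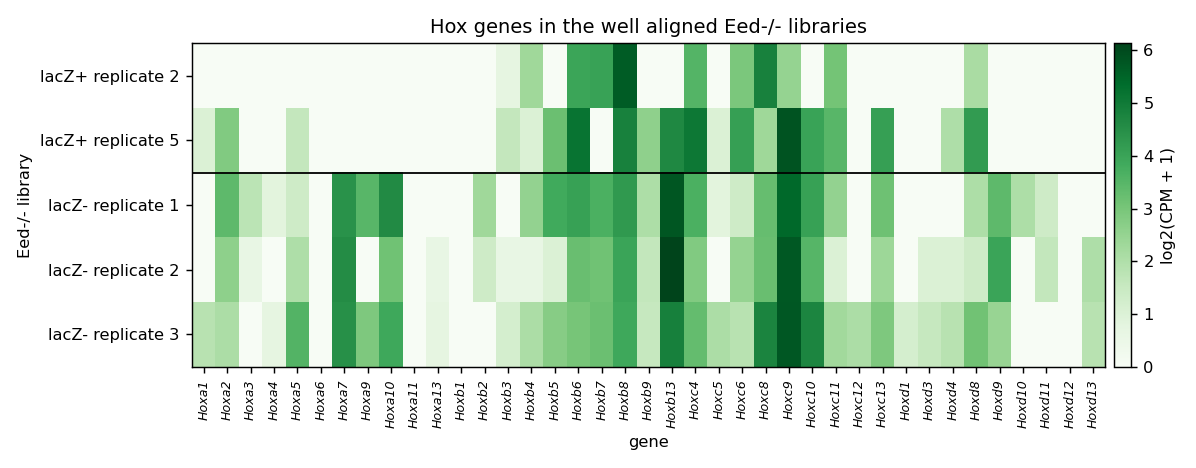
Level of the 39 Hox genes as log2(CPM + 1), from white (0) to dark green, in the 5 well aligned Eed-/- libraries, lacZ+ above the black line and lacZ- below it. Hoxb8 is colored in every row, whereas Hoxa7, Hoxa10 and Hoxd9 are white in both lacZ+ rows.

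Markers of other cells were counted in the same libraries. Oligodendrocyte lineage genes, which share the Emx1 origin, summed to 4920 and 4974 CPM in lacZ+ replicates 2 and 5 and to 4563, 3735 and 3262 CPM in lacZ-, so that neither gate was free of them. In the 8 libraries together 9 of 11 of them were lower, with a median log2 fold change of -0.71, near the -0.72 over all genes. Interneuron genes summed to 302 and 806 CPM against 676, 873 and 830 CPM, and to 1.73, 994 and 225 CPM in the poorly aligned lacZ+ replicates 1, 3 and 4. Mural cell genes summed to 159 and 41.8 CPM against 63.0, 28.9 and 31.8 CPM. The 8 endothelial genes summed to at most 28.4 CPM in any Eed-/- library. Microglia genes had no read in the well aligned lacZ+ libraries. On the lower side 3 of the 10, C1qc, P2ry12 and Cx3cr1, therefore had an unadjusted p under 0.05. Csf1r, another of the 10, had the smallest p of the 75 genes that DESeq2 called. Against the floor of 3 reads over the well aligned lacZ+ libraries it was at least 5.36-fold lower.

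Whether a cell type difference persisted without Eed was read from the Eed+/+ contrast, which shared no library with the Eed-/- contrast but shared its estimate of the spread and rested, among the well aligned libraries, on 4 lacZ+ and 1 lacZ- library. Of the 394 genes higher in Eed-/- lacZ+ cells at an unadjusted p under 0.05, 338 (85.8%) were also higher in Eed+/+ lacZ+ cells, against 48.4% of all genes. Their median log2 fold change was 1.54 in Eed-/- and 1.07 in Eed+/+ cells, 75 of them had an unadjusted p under 0.05 in the same direction in both genotypes, and 4 had it in opposite directions. Of the 653 lower genes, 379 (58.0%) were lower in Eed+/+ cells, against 50.5% of all genes. Their medians were -4.80 and -0.16, and 13 had that p in the same direction in both and 1 in opposite directions. Over all 14445 genes, 328 had that p in Eed+/+ cells with the sign of their Eed-/- value, and 100 with the opposite sign. Whether the higher and the lower genes differ in how often they kept their sign was not tested. With all 15 libraries 50.7% of the 209 higher and 48.8% of the 727 lower genes kept their sign, near the 52.2% of all genes. Of those 209 genes, 6 had an unadjusted p under 0.05 in the same direction in Eed+/+ cells and 25 in the opposite direction. For the 727 lower genes these counts were 26 and 8. Over all 13367 genes, 159 had that p in Eed+/+ cells with the sign of their Eed-/- value, and 147 with the opposite sign.

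For the astrocyte function lists the medians of both genotypes lay above 0 over the well aligned libraries, and their difference was not tested. Transport genes had medians of 1.51 in Eed-/- and 1.03 in Eed+/+ cells, metabolic genes 1.26 and 1.47, and surface and matrix genes 1.34 and 1.11. The Eed-/- medians rested on lacZ+ replicate 2, without which they were 0.63, 0.04 and 0.35. The sign was the same in both genotypes for 15 of 16, 15 of 16 and 16 of 18 genes. Ttyh1 gave 1.64 ± 0.43 and 1.68 ± 0.61, Sparc 1.26 ± 0.37 and 1.40 ± 0.51, and Gfap 1.45 ± 0.53 and 1.48 ± 0.73. DESeq2 called 75 genes in the Eed-/- and 21 in the Eed+/+ contrast and 2 in both, Ttyh1 and Fgfbp3, which is 2.67% of the first list and 9.52% of the second. S100b, the gene of a calcium binding protein of astrocytes, had opposite signs in the genotypes. It stood at 234 and 162 CPM in Eed-/- lacZ+ cells against 85.9, 51.7 and 99.1 CPM in lacZ- cells, and at 82.9, 46.9, 25.5 and 28.5 CPM in the well aligned Eed+/+ lacZ+ libraries against 122 CPM in the lacZ- library. Its log2 fold changes were 1.34 ± 0.54 and -1.46 ± 0.62, and the difference had an unadjusted p of 0.00408 and did not pass adjustment.

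The test of the difference between the genotypes called 7 genes over all 15 libraries and none over the 10 well aligned ones, where 342 genes had an unadjusted p under 0.05 and DESeq2 called 5. Of the 7, Hbb-bs, Hba-a1, Lipe, Uhrf1 and Gm47542 were genes already described as high in poorly aligned libraries, and Gm23935 and Gm48600 were the others. Hsd17b13, the next protein coding gene on the higher side, did not pass (adjusted p = 0.0568) and was read in lacZ+ replicate 4 alone among the Eed-/- libraries. The protein coding genes with the smallest p on the lower side, Sostdc1, Fhl2, Lrrc3, Gpr12 and Pir, did not pass (adjusted p from 0.448 to 0.660), and all 5 had no read in any Eed-/- lacZ+ library. Fhl2, a LIM domain cofactor, stood at 14.2, 33.1 and 22.9 CPM in Eed-/- lacZ- cells.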

How the data were processed

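GFP+/lacZ+ and GFP+/lacZ- cells were sorted from the neocortex of individual P4 animals, Smart-Seq v2 libraries were sequenced on a HiSeq 2500, and the authors aligned reads with STAR to mm10 (GRCm38). The deposited files are gene tables of 1 library each, with raw counts of reads that aligned to 1 place, neither normalized nor pooled. The sources used here name no release of the gene annotation behind these counts. Counts of the unstranded column were used, so reads of antisense partners cannot be told apart. The 4 lines of totals stayed out, and 0 columns lacked a sample. Symbols and coordinates came from GENCODE vM21 (53274 of 53379 identifiers matched).

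All 15 labelled libraries were fitted in 1 model with 4 group means (edgeR 4.0.16 quasi-likelihood test, robust, TMM, filterByExpr; R 4.3.3), two-sided, with Benjamini-Hochberg adjustment over all genes tested and a threshold of 0.05. The 10 well aligned libraries were fitted in the same way. DESeq2 1.42.0, limma-voom 3.58.1 and other settings served as alternatives, and those run on the well aligned libraries (DESeq2, limma-voom and leaving out 1 library at a time) were chosen after seeing the data. Among these settings a run means a range of library numbers. It does not stand for a sequencing run named in the labels. Gene counts per library ranged from 211736 to 2058192 in Eed-/- cells. Floors of 3 reads cover counting error only, since reads without molecular identifiers are not independent molecules.

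The members and the 21 lists (395 genes) were chosen with earlier results of these data known. Genes were named as list members, as Aqp4, Gfap, Lrrn3, Npm1, Eed, Ezh1, Ezh2, Suz12 and Mki67, as the 6 protein coding genes per direction with the smallest p among those past 0.05 whose libraries did not overlap, and as the 5 per direction with the smallest p for the difference between genotypes. The other called genes, and the leading genes of the well aligned libraries, were named after their values were seen. The study set some libraries aside that the sources used here do not name, so none was left out of the full comparison. The values of 1 gene are not reported here.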

Additional observations from a re-analysis of the deposited data

Results flagged for a closer look

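In groups of 5 lacZ+ Eed-/- libraries, 32 genes were examined for a library apart from the others by Dixon's test, of which chance flags about 1 in 20. Lrrn3 was apart in replicate 5 (35.7 CPM, the others 0 to 4.67), Ezh2 in replicate 5 (173 CPM, the others 0 to 42.1) and Mki67 in replicate 1 (303 CPM, the others 0 to 57.1).

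The cell type difference itself differed between the genotypes over all 15 libraries (interaction term of edgeR, adjusted p from 3.48e-06 to 0.0201) for 7 genes. The log2 difference between the genotypes was 15.32 for Hbb-bs, 13.38 for Hba-a1, 7.70 for Gm47542, 8.01 for Lipe, 6.59 for Uhrf1, 8.15 for the microRNA gene Gm23935 and 7.88 for Gm48600. None of the 7 was called by edgeR over the 10 well aligned libraries, where 342 genes had an unadjusted p under 0.05 and DESeq2 called 5. Gm23935 had a log2 fold change of lacZ+ over lacZ- of 0.18 ± 1.07 (SE) in Eed-/- cells (edgeR, adjusted p = 0.999) and of -7.97 ± 1.29 in Eed+/+ cells.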

How the results depend on the processing

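Calls in the Eed-/- contrast numbered 8 over all libraries and 0 in the well aligned ones, 13 with DESeq2, 1 with limma-voom, 3 without a filter, 13 with a mean count above 10, 0 in the first run of library numbers, and 0 with the 5 well aligned Eed-/- libraries alone (edgeR; 1047, 2273 and 911 genes at an unadjusted p under 0.05 where it made 0 calls). Leaving out 1 library gave 0 to 26 calls: 0 without lacZ- replicate 1 or lacZ+ replicate 4, 2 without lacZ- replicate 3, 3 without lacZ- replicate 2, 5 without lacZ+ replicate 3 and 26 without lacZ+ replicate 5. Among the well aligned libraries, 0 calls became 75 with DESeq2 and 4 with limma-voom, and 0 to 263 with 1 library left out, the highest without lacZ+ replicate 5. The Eed+/+ contrast gave 1 call, 0 in the well aligned libraries, 6 with RLE size factors, 8 with DESeq2, 0 with limma-voom, 2 without a filter, 3 with a mean count above 10, 7 with the run as covariate, 0 in the first run (428, 1002 and 266 genes at an unadjusted p under 0.05 where calls were 0), and 0 (without lacZ- replicate 2) to 5 (without Eed-/- lacZ+ replicate 1) with 1 library left out. In the well aligned libraries DESeq2 gave 21 and leaving out 1 library 0 to 0. The difference between genotypes gave 7 calls, 0 in the well aligned libraries, 21 with RLE, 0 with limma-voom, 2 without a filter, 0 in the first run (342, 1433 and 1286 at that unadjusted p), and 1 (without Eed-/- lacZ+ replicate 4) to 12 (without Eed-/- lacZ+ replicate 5) with 1 library left out. In the well aligned libraries DESeq2 gave 5 and leaving out 1 library 0 to 1. Genes called in both genotypes numbered 0, and 2 with DESeq2 on the well aligned libraries; leaving out 1 library gave 0 to 0. The causes were not tested. Same-numbered libraries of the 2 gates did not deviate together (correlations of deviations of -0.018, 0.066 and 0.061 in Eed-/- and -0.045 in Eed+/+), not every library correlated best with its own number, and with the replicate number as a block the calls were 4, 0 and 2 for the 3 contrasts and 0 shared. Aqp4 turned to -0.30 with limma-voom and -0.022 with the block, and ranged from -0.17 to 0.85 with 1 library left out. Gfap turned to -0.67 with limma-voom, -0.044 in the first run and -1.29 with the block, and ranged from -0.50 to 0.57. Mki67 turned to 0.22 with RLE and 0.22 with DESeq2, where RLE moved the median of all genes from -0.72 to -0.49. In the well aligned libraries Hbb-bs turned to -1.95 and Hba-a1 to -4.68, and Ezh1 ranged from -7.87 to 0.084 with 1 library left out. Of the other gene values 578 kept direction and side of the threshold, 71 lost and 19 gained the call, and 757 list medians moved by less than the spread between replicates while 63 moved by more. With 2 well aligned lacZ+ libraries, and 211736 gene reads in the shallowest, genes below a few CPM could not be compared.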

Other observations

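The labels of 1 further library of Eed-/- cells from a mosaic animal named both cell types, and it entered no comparison. It held 221456 reads in genes at 17.7% unique alignment, with 2397 genes detected. Its astrocyte transport genes summed to 26850 CPM without TMM scaling (5946 reads), its neuronal cytoskeleton genes to 370.3 (82 reads) and its 39 Hox genes to 573 (127 reads over 3 genes).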
